A study of Mus musculus with 10 samples.

Results

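Transcripts of 10 genes that mark mammary tumour epithelium were followed in RNA from sorted tumour-associated macrophages: the keratins Krt5, Krt7, Krt8, Krt14, Krt18 and Krt19, the adhesion molecules Epcam and Cdh1, and the claudins Cldn4 and Cldn7. They were chosen by symbol, as 10 of the 46956 loci with a symbol in the tables, and each member locus lists 1 symbol. The macrophages came from tumours that BALB/cJ mice developed after 4T1, a mouse mammary carcinoma line, was injected into their mammary fat pads. Sorted cells were CD45+, 7AAD-, CD11b+, F4/80+, CD8-, Ly6C- and Ly6G-, a gate for living myeloid cells that carry a macrophage marker. In 5 samples the mice had been given PBS as vehicle. In the other 5 they had been given JHU083, a prodrug of the glutamine antagonist 6-diazo-5-oxo-L-norleucine, at 1 mg/kg from day 7 to day 13. Tumours of both groups were harvested on day 14, and the labels name no altered allele in either. The labels do not say that the samples of a group came from separate mice, so p-values measure only the spread between these samples.

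Keratins build the intermediate filaments of epithelial cells as obligate pairs of a type II and a type I chain. Krt7 and Krt8 are type II chains and Krt18 and Krt19 type I chains of simple, luminal epithelium, and Krt5 (type II) and Krt14 (type I) form the filaments of basal cells. Epcam and Cdh1 (E-cadherin) hold neighbouring epithelial cells together, and claudins seal tight junctions. Some macrophages can express Cdh1, so it is less specific to epithelium than the keratins. In bulk RNA, fewer epithelial cells in a sort and less RNA per cell cannot be told apart.

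Libraries held 11147723 to 15740488 fragments assigned to loci, and 17457 to 18702 loci had at least 1 fragment. CPM are counts scaled to library size with TMM factors. Before these factors, on library size alone, the floor of 3 fragments corresponded to 0.191 to 0.269 CPM. The ribosomal locus Rn18s-rs5 was listed at 0 in vehicle replicates 2, 4 and 5 and JHU083 replicates 1 and 3, and it took 2.38% to 4.64% of fragments in the other 5 libraries. Fold changes of the members within each of these sets of libraries are given beside the pooled ones. The labelled cell type was visible: 9 of 9 macrophage genes passed the filter on low counts, and their summed CPM was 14805 to 17837 in vehicle and 19182 to 25006 in JHU083 samples, against 301 to 654 and 104 to 220 for the 10 epithelial transcripts.

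Of the 10 members, 9 passed the filter and were tested, and 9 were lower in JHU083 samples at an adjusted p under 0.05 (edgeR's quasi-likelihood test, Benjamini-Hochberg over 12500 loci). Over all loci tested, 18.3% were lower and 18.4% were higher by the same rule, as 2293 and 2296 loci, and 36.7% changed in either direction. With library-size scaling alone these became 3140 lower and 1566 higher, with the members' calls the same. The members' log2 fold changes ran from -3.17 for Cldn7 to -1.15 for Cdh1, beside a median of 0.01 and a 10th percentile of -0.61 over the loci tested. In 8 of the 9, every JHU083 sample lay below every vehicle sample in CPM, which held for 11.1% of all loci tested, and Cldn4 was the exception. Within the libraries with Rn18s-rs5 at 0 the 9 log2 fold changes ran from -4.40 to -1.65, and within the others from -2.88 to -0.83. Cldn7 passed the filter through the vehicle samples. Krt5 did not pass it.

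**Figure D1:**
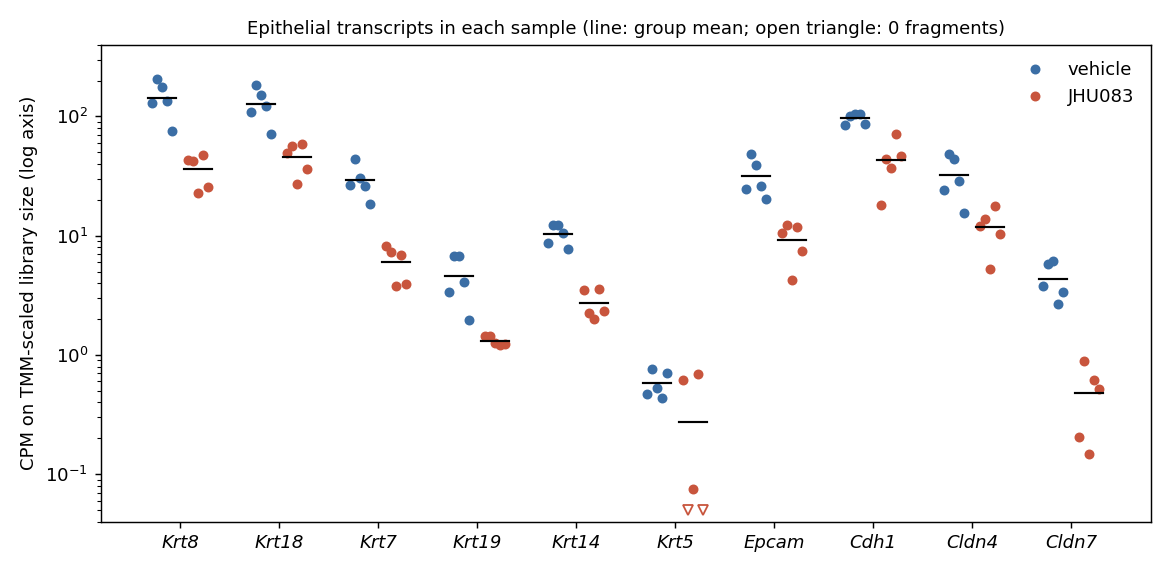
TMM-scaled CPM (log axis) of each of the 10 epithelial transcripts in the 5 vehicle and 5 JHU083 samples, with 1 point per sample, lines at the group means and open triangles for samples with 0 fragments. The groups separate for every transcript but Cldn4 and Krt5.

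The sequence just before the start of each member was compared because the 9 members tested were all lower. RefSeq promoters (GRCm38.p6) were found for 8 of the 10 members, with 2 starts for Cldn7, and none was used for Krt19 and Cdh1. In the 250 bases before each start, 3 motifs were searched on both strands: CACCTG, an E-box known to be bound by Snail and Zeb factors, ACCGGT, a core of grainyhead-like sites, and the TATA motif TATAAA. An E-box match on either strand was in 7 of the 9 windows and in 7 of the 8 members, beside 17.2% of 32851 such windows of all genes. Krt14 was the exception, and the 7 include Krt5, which did not pass the filter. ACCGGT was in Epcam alone, in 2 copies, beside 1.86% of windows, and TATAAA in 0 of 9, beside 12.4%. A match describes letters in this window and is not a site of binding. The windows of the keratin pair and of Epcam, Cldn4 and Cldn7, whose changes are compared with each other, are shown 5′ to 3′ in the gene's direction, with the motif matches in capitals (an E-box on the other strand reads CAGGTG).
Krt8, chr15:102004343-102004592, minus strand: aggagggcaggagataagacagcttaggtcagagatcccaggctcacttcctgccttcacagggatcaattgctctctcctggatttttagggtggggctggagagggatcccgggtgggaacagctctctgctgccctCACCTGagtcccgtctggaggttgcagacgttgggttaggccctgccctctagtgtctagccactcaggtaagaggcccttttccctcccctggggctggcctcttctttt
Krt18, chr15:102027966-102028215, plus strand: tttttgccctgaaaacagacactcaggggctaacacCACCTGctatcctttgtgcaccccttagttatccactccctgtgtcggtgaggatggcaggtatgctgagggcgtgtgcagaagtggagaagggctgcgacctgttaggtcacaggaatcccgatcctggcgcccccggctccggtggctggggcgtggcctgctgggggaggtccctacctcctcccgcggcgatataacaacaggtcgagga
Epcam, chr17:87635729-87635978, plus strand: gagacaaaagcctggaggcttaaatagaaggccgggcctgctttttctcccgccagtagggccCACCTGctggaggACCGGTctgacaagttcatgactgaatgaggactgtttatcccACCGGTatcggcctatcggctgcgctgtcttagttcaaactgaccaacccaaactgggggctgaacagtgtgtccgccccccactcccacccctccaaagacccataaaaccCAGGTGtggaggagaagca
Cldn4, chr5:134946935-134947184, minus strand: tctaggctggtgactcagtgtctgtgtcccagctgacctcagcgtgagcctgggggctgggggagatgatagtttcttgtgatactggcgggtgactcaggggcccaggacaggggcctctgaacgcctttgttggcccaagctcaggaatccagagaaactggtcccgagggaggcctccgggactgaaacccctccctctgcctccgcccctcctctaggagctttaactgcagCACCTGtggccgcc
Cldn7, downstream start, chr11:69965171-69965420, plus strand: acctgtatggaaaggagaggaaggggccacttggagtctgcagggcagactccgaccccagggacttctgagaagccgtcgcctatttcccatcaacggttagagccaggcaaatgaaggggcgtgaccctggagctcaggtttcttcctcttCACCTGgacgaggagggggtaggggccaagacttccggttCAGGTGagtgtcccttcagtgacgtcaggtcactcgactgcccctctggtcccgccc

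The E-box match lay 111 bases before the Krt8 start and 214 before that of Krt18, and 14 bases before that of Cldn4. Epcam held matches 187 and 19 bases before its start and Cldn7's downstream start had them at 97 and 57. The window before the upstream Cldn7 start held 0.

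The luminal pair Krt8 and Krt18 had the highest mean FPKM, a length-corrected level, in both groups. Krt8 (XLOC_013705, GRCm38 chr15:101996698-102004482, minus strand) is the main type II keratin of simple epithelium. Its level was 129, 205, 177, 134 and 75.0 CPM in vehicle replicates 1 to 5 and 42.8, 42.6, 22.7, 47.3 and 25.6 CPM in JHU083 replicates 1 to 5. The highest JHU083 sample thus stayed below the lowest vehicle sample. The mean went from 144 ± 49.6 to 36.2 ± 11.2 CPM (SD, n = 5 each), a log2 fold change of -1.99 (SE 0.25, edgeR adjusted p = 5.47e-05), and of -2.07 within the libraries with Rn18s-rs5 at 0 and -2.0 within the others.

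Krt18 (XLOC_013063, chr15:102028180-102032027, plus strand), the type I partner of Krt8, lies next to it in the genome. Its level was 109, 183, 152, 123 and 70.6 CPM in vehicle and 49.1, 56.5, 27.1, 58.9 and 35.9 CPM in JHU083 samples. Vehicle replicate 5 was the lowest of its group and JHU083 replicate 3 the lowest of the other, as for Krt8. The mean went from 128 ± 42.6 to 45.5 ± 13.7 CPM (SD, n = 5 each), a log2 fold change of -1.49 (SE 0.24, edgeR adjusted p = 0.000356), with -1.72 and -1.38 in the same sets.

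The partners did not fall by the same amount. Fragments of Krt8 per fragment of Krt18, a ratio within each library that needs no scaling between libraries, was 1.18, 1.12, 1.16, 1.09 and 1.06 in vehicle samples. It was 0.871, 0.753, 0.838, 0.803 and 0.712 in JHU083 samples, so that Krt8 gave more fragments than Krt18 in each vehicle sample and fewer in each JHU083 sample. The log2 ratio differed by -0.50 (exact two-sided permutation test, p = 0.00794, the smallest that 5 against 5 samples allow; adjusted p = 0.0317 over the 4 ratios tested of 6 computed, which were chosen after earlier results were seen). The ratio is not corrected for transcript length, so only its change between samples can be read.

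Krt7 and Krt19, the other luminal keratins, were less abundant. Krt7 (XLOC_013053, chr15:101411043-101430313, plus strand), a type II chain, was at 26.9, 44.2, 30.6, 25.9 and 18.4 CPM in vehicle and 8.17, 7.32, 3.8, 6.87 and 3.92 CPM in JHU083 samples. The groups lay far apart, and the log2 fold change of -2.28 (SE 0.25, edgeR adjusted p = 1.64e-05) was the largest decrease among the keratins tested, with -2.29 and -2.26 in those sets. Krt19 (XLOC_007439, chr11:100140810-100148665, minus strand), a small type I chain, was at 3.39, 6.70, 6.78, 4.08 and 1.95 CPM in vehicle and 1.43, 1.44, 1.27, 1.22 and 1.24 CPM in JHU083 samples. The JHU083 samples lay close together, with a coefficient of variation of 8.00% against 46.2% in vehicle, from 16 to 21 fragments each. On the deposited FPKM it was 21.3% against 54.1%. There the groups overlapped, with JHU083 replicate 1 at 1.44 and vehicle replicate 5 at 1.32 FPKM. The log2 fold change of Krt19 was -1.79 (SE 0.31, edgeR adjusted p = 0.000598). Among the 5 libraries with Rn18s-rs5 at 0 the change was -1.65 and the call was lost (edgeR adjusted p = 0.0813), and among the other 5 it was -1.96.

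Krt14 and Krt5 form the basal pair. Krt14 (XLOC_007441, chr11:100203162-100207548, minus strand), the type I basal keratin, was at 8.75, 12.2, 12.4, 10.6 and 7.66 CPM in vehicle and 3.47, 2.26, 2.01, 3.59 and 2.35 CPM in JHU083 samples. The groups were separate, and the log2 fold change was -1.91 (SE 0.20, edgeR adjusted p = 1.29e-05), with -1.88 in the libraries with Rn18s-rs5 at 0 and -1.96 in the others. Krt14 per Krt8 fragments differed by 0.04 on the log2 scale (exact two-sided permutation p = 0.810, adjusted p = 0.810), so a difference in the change of the basal and the luminal keratin was not detected. Krt5 (XLOC_013693, chr15:101707070-101712898, minus strand), the type II partner of Krt14, had 7, 10, 7, 5 and 9 fragments in vehicle and 9, 0, 1, 9 and 0 in JHU083 samples. JHU083 replicates 1 and 4 were thus within the vehicle range and the other 3 at or near 0. At these counts a change was not detectable: a fit without the filter gave a log2 fold change of -1.08 (SE 0.62, edgeR adjusted p = 0.262).

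Of the adhesion molecules, Epcam (XLOC_015685, chr17:87635979-87651129, plus strand), a surface glycoprotein used to sort epithelial cells, was at 24.7, 48.5, 39.0, 26.2 and 20.2 CPM in vehicle samples. In JHU083 samples it was at 10.6, 12.3, 4.24, 11.8 and 7.39 CPM, all lower than in any vehicle sample. The log2 fold change was -1.78 (SE 0.28, edgeR adjusted p = 0.000261), with -2.09 in the libraries with Rn18s-rs5 at 0 and -1.61 in the others.

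Cdh1 (XLOC_039400, chr8:106603351-106670246, plus strand), the cadherin of adherens junctions, had another distribution. It was at 84.9, 100.2, 106, 105 and 87.2 CPM in vehicle and 18, 44.3, 37.2, 71.5 and 46.6 CPM in JHU083 samples. The vehicle samples were close together, with a coefficient of variation of 10.3%, while the JHU083 samples varied by 44.2%, with replicate 1 lowest and replicate 4 highest. The log2 fold change of -1.15 (SE 0.24, edgeR adjusted p = 0.00222) was the smallest decrease among the members tested. Without JHU083 replicate 1 or another library in turn it lay between -1.40 and -0.95. It was -1.82 among libraries with Rn18s-rs5 at 0 and -0.83 among the others, and the test of that difference gave an unadjusted p of 0.0189 and an adjusted p of 0.964 (edgeR).

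Both claudins were lower. Cldn4 (XLOC_030526, chr5:134945119-134946934, minus strand) was at 24.3, 48.4, 43.9, 29.0 and 15.6 CPM in vehicle and 12.0, 13.8, 5.29, 17.6 and 10.3 CPM in JHU083 samples. Its groups overlapped, since JHU083 replicate 4 was above vehicle replicate 5, and its log2 fold change was -1.45 (SE 0.31, edgeR adjusted p = 0.00238), with -1.84 in the libraries with Rn18s-rs5 at 0 and -1.31 in the others. Cldn7 (XLOC_005528, chr11:69964779-69967885, plus strand), which partners Epcam in epithelial membranes, was at 3.8, 5.78, 6.18, 2.69 and 3.36 CPM in vehicle and 0.204, 0.890, 0.149, 0.611 and 0.523 CPM in JHU083 samples. The JHU083 values rest on 2 to 13 fragments each, of which replicates 1 and 3 had 3 and 2. Its log2 fold change of -3.17 (SE 0.39, edgeR adjusted p = 3.74e-05) was -4.40 in the libraries with Rn18s-rs5 at 0 and -2.88 in the others, so its size is loosely set at these counts.

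Ratios to Cldn7 rest on its few fragments in JHU083 samples and were chosen with its decrease known, so they are given without a test. Epcam per Cldn7 fragments was 6.00 to 9.74 in vehicle and 13.8 to 51.7 in JHU083 samples, and Cldn4 per Cldn7 was 4.63 to 10.8 and 15.5 to 58.7. The groups did not overlap in either ratio. Cdh1 per Epcam differed by 0.53 on the log2 scale (p = 0.286, adjusted p = 0.381) and Krt8 per Cdh1 by -0.70 (p = 0.159, adjusted p = 0.317, both exact permutation tests), and neither passed. Both depended on JHU083 replicate 1: without it the differences were 0.88 (exact permutation, adjusted p = 0.0529) and -1.06 (adjusted p = 0.0476), and the latter passed.

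**Figure D2:**
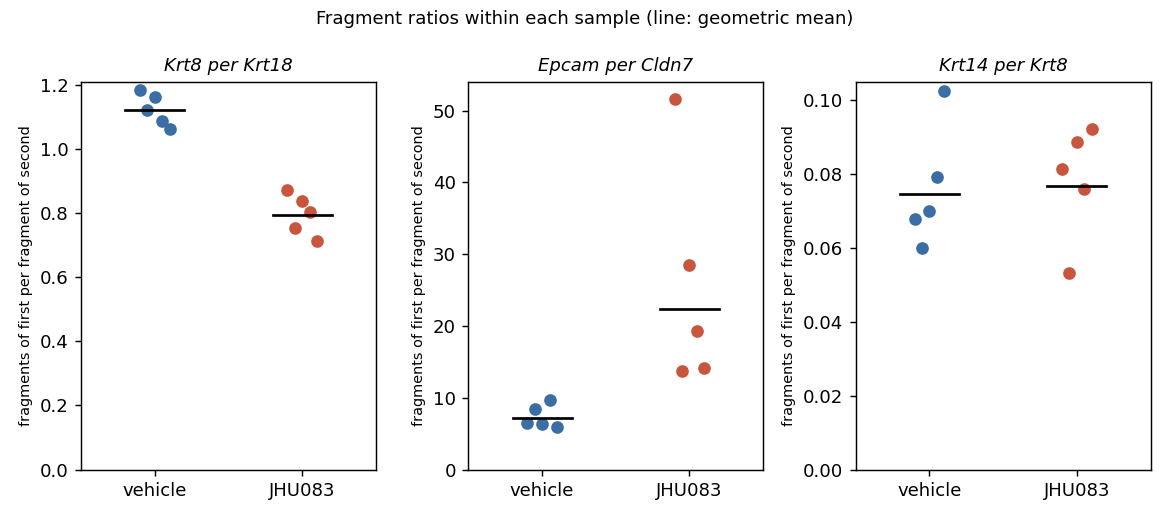
Fragments of one transcript per fragment of another in each library (linear axes from 0), for 3 of the 6 pairs compared, with 1 point per sample and lines at the geometric means. Krt8 per Krt18 lies above 1 in the 5 vehicle samples and below 1 in the 5 JHU083 samples, Epcam per Cldn7 is higher in JHU083 samples without overlap, and Krt14 per Krt8 overlaps.

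**Figure D3:**
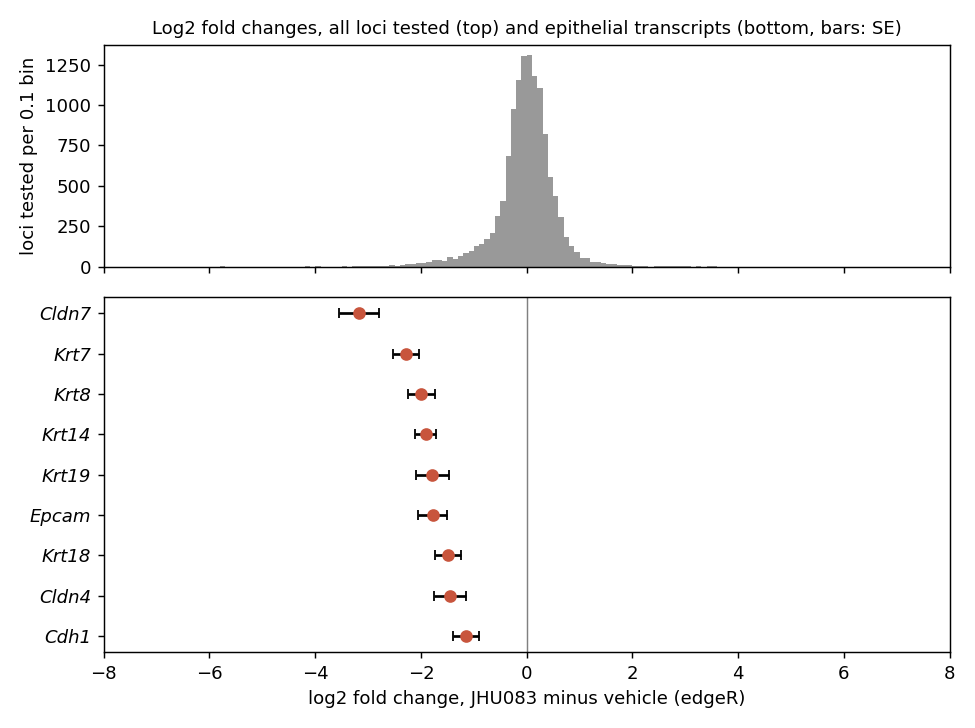
Log2 fold changes of JHU083 against vehicle: above, a histogram of the 12500 loci tested, and below, the 9 members tested with bars for the SE. The members run from Cldn7 at -3.17 to Cdh1 at -1.15, all left of 0.

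On the length-corrected scale of the deposited FPKM, Krt18 had the highest mean level, 99.1 in vehicle and 35.5 in JHU083 samples. Krt8 followed at 83.3 and 21.0 FPKM, Cdh1 at 21.3 and 9.61, Cldn4 at 18.5 and 6.80, and Epcam at 16 and 4.68. Krt7 was at 8.28 and 2.19 FPKM, Krt14 at 6.50 and 1.86, Cldn7 at 4.89 and 0.590, Krt19 at 3.74 and 1.06, and Krt5 at 0.270 and 0.128. The order of the means was the same in both groups apart from Cldn7 and Krt19, which changed places. Of neighbours in that order, only Krt8 and Cdh1, and Krt19 and Krt5, had separate ranges in vehicle samples, and none had in JHU083 samples. Krt18 thus made up 37.6% of the members' summed FPKM in vehicle and 42.4% in JHU083 samples, while Krt8 went from 31.5% to 25.1% and Cldn7 from 2.0% to 0.713%. The length term behind the FPKM varied between samples for Cldn7 and Krt7, so the place and share of Cldn7 are loosely set.

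Correlations across samples were positive for most pairs of members. Since the groups separate, they were computed on log2 CPM after subtracting each group's mean, over 10 samples and 36 pairs of the 9 members tested, with exact permutation within groups. Pearson's r was positive in 35 pairs, with a median of 0.73 and a range from -0.11 to 0.98. It passed an adjusted p of 0.05 in 23 pairs, and Spearman's rho did so in 11. Leaving out 1 vehicle library left 9 to 12 pairs (12 without replicate 1, 11 without replicates 2, 3 or 4, 9 without replicate 5), leaving out 1 JHU083 library left 17 to 27, and the deposited FPKM gave 16. All pairs share the same libraries and depth. The 5 samples of 1 treatment are too few for a separate r. Krt19 deviated from its group mean by -1.04 to 0.68 log2 units in vehicle and by only -0.10 to 0.11 in JHU083 samples, so its pairs rest mainly on the vehicle samples. In each pair, the 2 samples farthest from the median in the gene listed first (order as in the opening) were also left out. Extreme samples of the other gene could thus remain. Then r was positive in 34 pairs, with a median of 0.68 and a range from -0.23 to 0.98. An unadjusted p under 0.05 was reached by 15 of them.

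Vehicle replicates 2 and 3 were above their group's mean for 9 of the 9 members, vehicle replicates 1 and 5 for 0, and JHU083 replicate 3 for 0. The closest pair was Krt8 and Krt18, with r = 0.98 (exact permutation p = 0.000139, adjusted p = 0.00100) and rho = 0.96 (p = 0.000556, adjusted p = 0.00400). Without the 2 samples farthest from the median of Krt8, vehicle replicate 5 and JHU083 replicate 3, r was 0.97. Luminal Krt8 and basal Krt14 gave r = 0.83 (exact permutation p = 0.0091, adjusted p = 0.0243) and rho = 0.83 (p = 0.0079, adjusted p = 0.0259), and r was 0.69 without the same samples (adjusted p = 0.140). The call was also lost without vehicle replicate 2, 3, 4 or 5 (r = 0.78 to 0.84, exact permutation adjusted p = 0.0563 to 0.115).

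Pairs with Cldn7 were looser. Epcam and Cldn7 gave r = 0.73 (exact permutation p = 0.0299, adjusted p = 0.0467) and rho = 0.75 (p = 0.0246, adjusted p = 0.0681), with r = 0.48 without vehicle replicate 2 and JHU083 replicate 3. Cldn4 and Cldn7 gave r = 0.71 (exact permutation p = 0.0265, adjusted p = 0.0454) and rho = 0.70 (p = 0.0383, adjusted p = 0.0986), with r = 0.59 without vehicle replicate 5 and JHU083 replicate 3. Both calls were marginal: each was lost in 8 of the 10 cases with 1 library left out, where r ran from 0.57 to 0.90 and from 0.55 to 0.82. On the deposited FPKM r was 0.32 (adjusted p = 0.636) for Epcam and 0.33 (adjusted p = 0.589) for Cldn4, and with a prior count of 0.5 the pair with Epcam had an adjusted p of 0.0520, all by exact permutation.

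Over all 10 samples 0 of the 8 pairs with Cdh1 passed an adjusted p of 0.05, and its median r with the other members was 0.14. With Krt8 it gave r = 0.12 (exact permutation p = 0.767, adjusted p = 0.812) and rho = 0.30 (p = 0.386, adjusted p = 0.435). Without the 2 samples farthest by Krt8, vehicle replicate 5 and JHU083 replicate 3, r was 0.03. With Epcam, Cdh1 gave r = 0.16 (exact permutation p = 0.714, adjusted p = 0.779) and rho = 0.44 (p = 0.213, adjusted p = 0.265). Without the 2 samples farthest by Epcam, vehicle replicate 2 and JHU083 replicate 3, r was again 0.16. Both of these choices kept JHU083 replicates 1 and 4, in which Cdh1 lay farthest from its group mean. Where the 2 samples left out were JHU083 replicates 1 and 4, r of Cdh1 was 0.81 with Krt14, 0.79 with Cldn4 and 0.56 with Cldn7. In JHU083 replicate 1, Cdh1 was 1.13 log2 units below its group mean and Cldn7 0.67 below, while the other 7 members were above theirs. Without that library the r of Cdh1 with Krt8 was 0.63 and that with Epcam 0.65. Epcam and Cldn4 each passed in 7 of 8 pairs, Krt7, Krt8, Krt14, Krt18 and Krt19 in 6 each, and Cldn7 in 2.

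**Figure D4:**
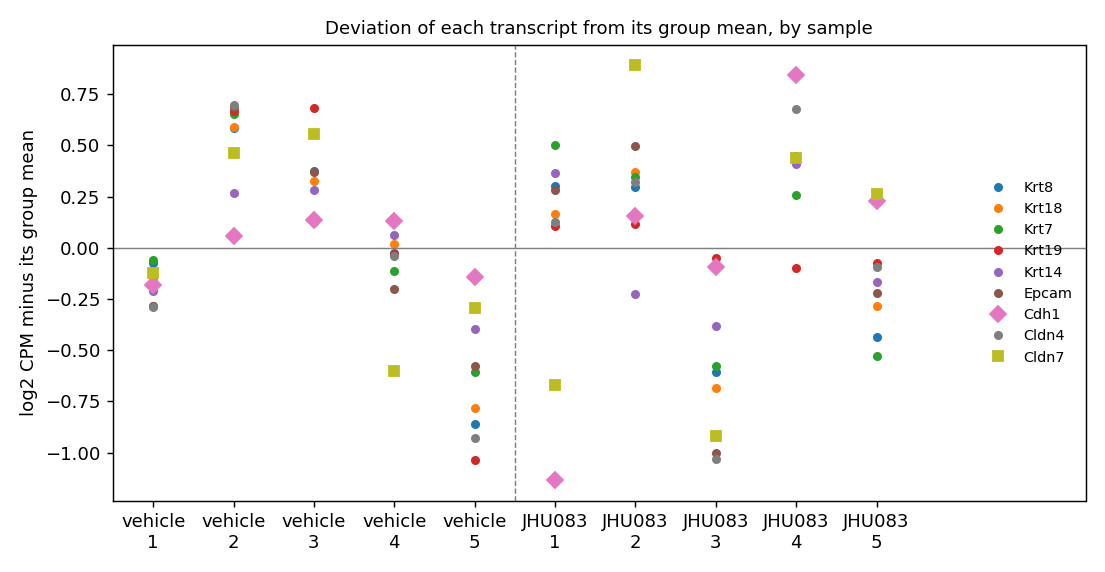
Deviation of each tested member's log2 CPM from its treatment group's mean (vertical axis, log2 units) in the 10 samples, with 1 marker per transcript and larger markers for Cdh1 and Cldn7. Vehicle replicates 2 and 3 have 9 of 9 members above 0 and JHU083 replicate 3 has 9 of 9 below it, while Cdh1 and Cldn7 lie far below the other 7 in JHU083 replicate 1.

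The summed CPM of the 10 members was 416, 654, 574, 461 and 301 in vehicle and 146, 181, 104, 220 and 134 in JHU083 samples. The means were 481 ± 138 and 157 ± 44.9 (SD, n = 5 each), a ratio of 3.06, and the groups did not overlap. With the members left out, the loci whose within-treatment pattern was most like this sum, among those with an average log2 CPM of at least 2, were Tubgcp3 (Pearson r = 0.97 over 10 samples, log2 fold change -0.00), a locus shared by Gm28041, Gm28044, Zfp456, Zfp595 and Zfp953 (0.97, 0.35), Tnnt2 (0.97, -0.87), Cdc42ep1 (0.97, -2.04) and Col6a1 (0.97, -1.61). Clu (0.96, -1.65), Ltbp2 (0.96, -1.61), Tm4sf1 (0.96, -1.63), Cpe (0.96, -1.19) and Sox9 (0.96, -2.32) followed. Of these 10, only Tubgcp3 and the shared locus missed an adjusted p of 0.05 for treatment (edgeR adjusted p = 0.988 and 0.0555). Among the members themselves, r with the sum ran from 0.98 for Cldn4 to 0.42 for Cdh1. Each member is part of that sum, so these r are partly set in advance.

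Other epithelial genes, in 5 lists of 66 genes, mostly went the same way: of 38 tested, 28 were lower (73.7%, beside 18.3% of all loci) and 1 was higher (beside 18.4% of all loci), with a median log2 fold change of -1.41. The counts of each list below are to be read against the same shares. Within the libraries with Rn18s-rs5 at 0 16 were lower, and within the others 22. Some of them, like Cldn7, could pass the filter through the vehicle samples. Of the 20 junction genes, 14 were tested and 10 were lower, with a median of -1.29. The list's largest fitted decreases were in Cdh3 (P-cadherin, -1.88, from 2 to 20 fragments and a JHU083 mean of 0.298 CPM near the 3-fragment floor), and in the plaque proteins Ppl (-1.80) and Pkp3 (-1.79), while Jup, which also serves outside epithelium, was at 0.18 (adjusted p = 0.195). Of 15 regulators, 6 were tested and 4 were lower, with a median of -1.78: the splicing factor Esrp1 (-2.33, SE 0.35, adjusted p = 0.000187), the grainyhead-like factor Grhl2 (-2.15, SE 0.57), Klf5 (-2.06, SE 0.45) and Gata3 (-1.50, at a locus shared with another gene). Esrp1 had 6 to 78 fragments and Grhl2 0 to 47 across the 10 samples, with JHU083 means of 0.675 and 0.528 CPM. The size of these decreases is thus loosely set. In Grhl2 and Klf5 the groups overlapped.

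Surface proteases, their inhibitors and other epithelial genes were lower in 8 of 8 tested of 12, with a median of -1.41 and the largest decreases in Prss22 (-2.75), Spint1 (-2.22) and Spint2 (-1.70), of which the last pair inhibit surface serine proteases. Of 9 genes of basement membrane adhesion, 8 were tested, 6 were lower and 1 was higher, with a median of -2.33. The laminin-332 chains Lama3 (-3.42, SE 0.40, edgeR adjusted p = 2.71e-05) and Lamb3 (-3.08), and the laminin-binding integrin Itga3 (-2.67), had the largest fitted decreases. Lama3 had 1 to 65 fragments and Lamb3 4 to 128 across the 10 samples, with JHU083 means of 0.300 and 0.816 CPM, near the 3-fragment floor for Lama3, so the size of these decreases is loosely set. Itga6, the 1 gene that was higher (0.98, adjusted p = 0.000201), is named here after its value was seen. Among 10 other keratins, 2 were tested, Krt10 at 0.62 and Krt80 at -0.14, and neither passed (edgeR adjusted p = 0.11 and 0.691).

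**Figure D5:**
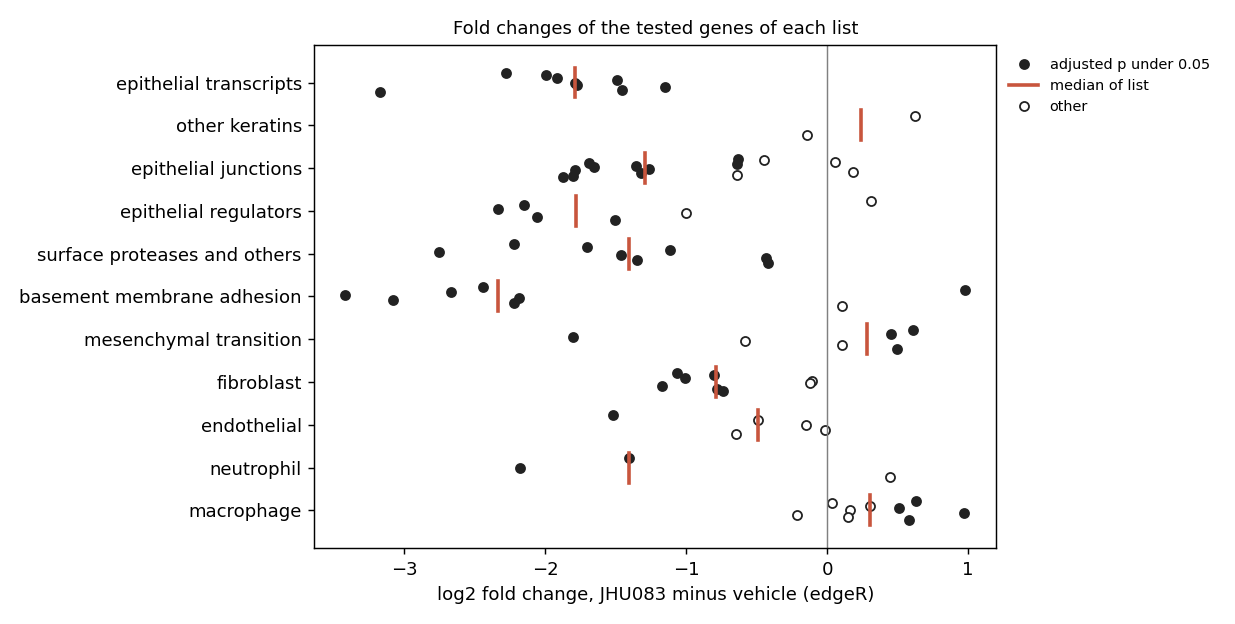
Log2 fold changes of the tested genes of each list shown, with filled points for an adjusted p under 0.05, open points for the rest and a bar at each list's median. Some lists are not shown, among them the milk and luminal genes, of which 1 was tested (0.30). Medians of the epithelial lists lie left of 0 apart from other keratins at 0.24, as do those of the fibroblast, endothelial and neutrophil lists, and the macrophage and mesenchymal lists have medians of 0.30 and 0.28.

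Of 9 genes of the mesenchymal transition, in which epithelial cells lose their junctions, 6 were tested, 1 was lower (16.7%, beside 18.3% of all loci) and 3 were higher (beside 18.4% of all loci), with a median of 0.28. The share of lower genes is near that of all loci. Snai1, which encodes a repressor of Cdh1, was lower (-1.80, SE 0.32, edgeR adjusted p = 0.000673). Zeb1 (0.61), Fn1 (0.49) and Zeb2 (0.45, at a locus shared with Mir5129) were higher, and macrophages express Fn1 and Zeb2 as well. Of 8 milk and luminal genes 1 was tested, Esr1 at 0.30 (adjusted p = 0.264), and the milk gene Csn2 was listed at 0 in every sample.

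Markers of other cell types were measured too, and their part in the result was not tested. Across 8 lists of 53 genes, 26 were tested, 9 were lower (34.6%, beside 18.3% of all loci) and 2 were higher, with a median of -0.27. Without vehicle replicate 2 the count of lower genes was 5. Fibroblast genes were lower in 6 of 8 tested, with a summed CPM of 107 to 232 in vehicle and 28.4 to 119 in JHU083 samples and the largest decreases in Pdgfra (-1.17), Col1a1 (-1.06) and Col3a1 (-1.01). The loci of Pdgfra and Col3a1 each list another symbol too. Of 5 endothelial genes tested 1 was lower, Pecam1 at -1.52, which macrophages can express and which held most of the list's summed CPM, with means of 150 in vehicle and 52.5 in JHU083 samples. Kdr (-0.15), Vwf (-0.01), Cdh5 (-0.49) and Flt1 (-0.65) did not pass (edgeR adjusted p from 0.0922 to 0.970). The summed CPM of all 8 endothelial genes was 131 to 224 in vehicle and 39.8 to 94.8 in JHU083 samples. Of 3 neutrophil genes tested, S100a9 (-2.18) and S100a8 (-1.40) were lower, and Retnlg was at 0.45 (edgeR adjusted p = 0.490). The summed CPM of all 8 neutrophil genes was 33.6 to 45.6 in vehicle and 12.7 to 60.6 in JHU083 samples, of which Retnlg gave 19.4 ± 18.1 in JHU083 samples (SD, n = 5). Siglecf (0.89, edgeR adjusted p = 0.0115), of 3 eosinophil genes tested, and Cd79b (0.51, adjusted p = 0.0498), the 1 B cell gene tested, were higher. That count of 2 was 1 with DESeq2, with library-size scaling, with the replicate block and without vehicle replicate 1, 2, 4 or 5 or JHU083 replicate 3 or 4, and 0 within either set of libraries by Rn18s-rs5. Of 2 T and NK cell and 4 dendritic cell genes tested, 0 passed in either direction, and 0 of 5 adipocyte genes could be tested. Among the 9 macrophage genes 0 were lower and 4 were higher: Mertk (0.97), Adgre1 (0.63), Lyz2 (0.58) and Csf1r (0.51).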

How the data were processed

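RNA of 10 samples of sorted macrophages, 5 vehicle and 5 JHU083, was sequenced after poly(A) selection with a kit that the labels do not call stranded. The submitters' processing notes name bcl2fastq 2.17.1.14, FastQC 0.11.2, TopHat2 2.1.1 and GRCm38; the counter and annotation are not given in the sources used here. Per the file headers the authors deposited raw counts and normalized values. The deposited counts are not whole and were named expected counts: in each sample 98.7% to 99.1% of positive values are whole multiples (tolerance 0.01) of 1 step between 0.888 and 1.17. They were divided by that step and rounded to whole fragments, and every member value was whole. The normalized values the authors deposited behave broadly as FPKM, fragments scaled to transcript length and library total. They were used for levels of different genes and as an alternative for correlations and the members' sum. Their length term for a gene was not the same in every sample. Cldn7 was at 0.170 FPKM and 0.204 CPM in JHU083 replicate 1, but at 0.398 FPKM and 0.149 CPM in JHU083 replicate 3. That both columns were made so is an inference from the values. Of 46957 loci, 1 without a symbol, with at most 0.0021% of fragments, was left out, and 1060 list several symbols.

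Samples were grouped by labelled treatment. Loci were filtered with filterByExpr, scaled by TMM and tested with edgeR 4.0.16 (glmQLFit, glmQLFTest; R 4.3.3) without covariates, with Benjamini-Hochberg adjustment over 12500 loci at 0.05. The SE is the absolute log2 fold change divided by the square root of F. Log2 CPM has a prior count of 2. Correlations and ratios used Python 3.11.15 and SciPy 1.17.1. Scripts were tested on simulated data. Positions were looked up by symbol in GENCODE M21 (GRCm38). Depth was 11147723 to 15740488 fragments, and floors cover counting error only.

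The members, lists and pairs were chosen with earlier results of these data known. Named genes were the 10 members, up to 3 genes per list past the threshold with the largest change, and the 10 loci outside the members most like the members' sum. Others (Jup, Gata3, Itga6, Krt10, Krt80, Zeb2, Esr1, Csf1r, Kdr, Vwf, Cdh5, Flt1 and Retnlg) were named after their values were seen. Alternatives were DESeq2 1.42.0, library-size scaling, no filter, a replicate block, each sample left out, the deposited values rounded, the loss of Rn18s-rs5 or its status as a covariate, and, for correlations, FPKM (pseudocount 0.1), a prior count of 0.5 and 2 samples left out. The split of samples by Rn18s-rs5 and the leave-one-out of ratios were chosen after seeing the data.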

Additional observations from a re-analysis of the deposited data

How the results depend on the processing

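The 9 members tested kept their direction in 19 alternatives each, and 170 of 171 calls held, the exception being Krt19 within the libraries with Rn18s-rs5 at 0. The count of members lower was 9 in every setting but that one, where it was 8. Leaving out each sample in turn gave -3.52 to -2.95 for Cldn7, -2.16 to -1.84 for Krt8 and -1.40 to -0.95 for Cdh1.

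In the libraries with Rn18s-rs5 at 0, with 3 against 2 samples, 586 loci were lower and 532 higher, 16 other epithelial genes were lower, and of other cell types 5 were lower and 0 higher. In those with it above 0, 1276 loci were higher and 0 genes of other cell types. Genes of other cell types that were higher numbered 1 under DESeq2, library-size scaling, the deposited values rounded, without Rn18s-rs5, or with its status as a covariate. With a sample left out, 1900 to 2930 loci were lower and 1821 to 2899 higher, 26 to 29 other epithelial genes were lower and 1 to 2 higher, and 5 to 10 genes of other cell types were lower (5 without vehicle replicate 2) and 1 to 3 higher.

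Pairs past the threshold numbered 9 to 27 with a sample left out and 0 without the 2 samples farthest by the first gene of the pair. In that last setting 15 had an unadjusted p under 0.05 (exact permutation), and the smallest adjusted p a lone pair could reach with 8 samples is 0.05 to 0.0625. The r of Krt8 with Cdh1 ran from -0.14 to 0.63 and that of Epcam with Cdh1 from -0.055 to 0.65, below 0 without JHU083 replicate 4. Krt14 per Krt8 ran from -0.034 to 0.18.

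A pairing by replicate number was not seen: correlations of same-numbered samples ran from -0.57 to 0.09, and 0 of 5 pairs correlated best with their own number. The labels do not say what the numbers share, and this check cannot settle it. With the replicate block, 1757 loci were lower and 1612 higher, 9 members were lower, and 1 gene of other cell types was higher. Depth limits Krt5 and the JHU083 level of Cldn7. The cause of these shifts was not tested.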
